A study of Mus musculus with 6 samples.

Results

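Genes for the proteases that cut extracellular matrix and for their inhibitors were followed in mesenchymal stem cells from the fat of C57BL/6 mice as the cells were kept in osteogenic medium. Members were all genes with a probe named Mmp, Timp1 to Timp4, Adam, Adamts, Plau, Plaur, Plat, Htra1 to Htra4 or Serpin, with a detection p-value under 0.01 on at least 1 array, leaving out Serpina3n, Serping1 and Serpinh1. Of 54 genes whose symbol fits, 45 were detected, among 8881 tested genes in all. They comprised 31 proteases, 10 inhibitors and 4 genes that are neither, namely the receptor gene Plaur and 3 ADAMTS-like genes. The 9 genes without a detected probe were Mmp9, Mmp10, Adam4, Adam5, Adam28, Adamts8, Adamtsl1, Serpinb13 and Serpini1, and genes without a named probe were not analysed here.

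The 6 groups are day 0, when the osteogenic medium had not yet acted, and days 1, 3, 6, 10 and 14 in that medium, which held L-ascorbic acid, β-glycerophosphate, dexamethasone (a synthetic glucocorticoid), DMSO and serum. Each day had 1 Illumina bead array of total RNA, all from the same strain and from dorsal and inguinal fat, and the number of mice behind each array is not stated in the labels. No array comes from cells kept without the osteogenic medium at a later day, so time in the medium and time in culture cannot be told apart. Between 12891 and 13980 of 46613 probes were detected per array. Of 8 stromal markers 7 had a named probe, all detected on each of the 6 arrays, and over the course Pdgfra rose while Thy1, Cd44, Eng and Col1a1 fell. Macrophage markers with a named probe were Cd14 and Lyz2 of 8 listed, detected on 5 and 4 arrays, with summed signals from 467.9 on day 0 to 985.6 on day 6, and Cd14 rose. Endothelial markers with a named probe were Kdr and Tek of 4 listed, detected on all arrays with summed signals from 661.0 to 1142, and Adipoq was the only adipocyte marker of 4 with a named probe, with log2 levels of 5.42 at day 0, 5.55 at day 1, 7.49 at day 3, 9.36 at day 6, 9.32 at day 10 and 10.12 at day 14. Adipoq, not detected on days 0 and 1, rose, and no listed mast cell or neutrophil marker had a named probe. In such bulk RNA fewer cells of a type and less RNA per cell cannot be told apart, and the part of these markers in the results below was not tested.

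Matrix metalloproteinases (MMPs) are zinc enzymes that cleave collagens, gelatins and other matrix proteins, and tissue inhibitors of metalloproteinases (TIMPs) bind their active site. ADAMs are membrane-anchored relatives that release growth factors and receptors from the cell surface, and ADAMTS enzymes are secreted and cut proteoglycans such as aggrecan and versican. Plau and Plat code for the urokinase and tissue types of plasminogen activator, serine proteases that make plasmin, and Plaur for the receptor that holds urokinase at the cell surface. Serpins are a family of mostly serine protease inhibitors, some secreted and some intracellular. Bone-forming and fat-forming cells both remodel their matrix with these enzymes.

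Promoters of 4 members, chosen after their values were seen, are shown because these genes have the steepest fall (Plaur), the steepest rise (Timp4), an early peak (Mmp3) and a serpin rise (Serpinb8) among the results below. Each sequence is the 250 bases before the gene start in RefSeq, build GRCm38.p6, read 5′ to 3′ on the strand of the gene, and capitals mark the letters TGANTCA, the core bound by AP-1 factors, where present. Plaur lies at chr7:24462233-24462482 on the plus strand, Mmp3 at chr9:7445572-7445821 on the plus strand, Serpinb8 at chr1:107589756-107590005 on the plus strand and Timp4 at chr6:115252206-115252455 on the minus strand.
Plaur: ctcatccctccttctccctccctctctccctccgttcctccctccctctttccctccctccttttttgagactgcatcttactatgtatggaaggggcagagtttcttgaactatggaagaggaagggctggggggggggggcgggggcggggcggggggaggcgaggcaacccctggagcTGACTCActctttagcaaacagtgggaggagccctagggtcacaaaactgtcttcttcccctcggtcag
Mmp3: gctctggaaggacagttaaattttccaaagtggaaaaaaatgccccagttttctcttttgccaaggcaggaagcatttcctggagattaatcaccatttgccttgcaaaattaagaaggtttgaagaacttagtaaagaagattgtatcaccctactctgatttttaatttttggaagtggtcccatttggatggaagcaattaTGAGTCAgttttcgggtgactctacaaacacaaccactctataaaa
Serpinb8: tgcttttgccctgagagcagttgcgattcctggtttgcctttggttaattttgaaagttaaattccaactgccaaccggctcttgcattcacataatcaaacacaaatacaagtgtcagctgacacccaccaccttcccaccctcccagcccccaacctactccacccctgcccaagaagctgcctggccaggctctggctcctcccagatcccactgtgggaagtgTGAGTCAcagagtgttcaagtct
Timp4: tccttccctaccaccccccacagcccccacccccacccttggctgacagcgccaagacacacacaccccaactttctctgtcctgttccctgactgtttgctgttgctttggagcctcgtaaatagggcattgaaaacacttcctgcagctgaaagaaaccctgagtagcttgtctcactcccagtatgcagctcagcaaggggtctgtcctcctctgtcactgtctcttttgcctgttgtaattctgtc
The AP-1 core starts 69 bases before the gene start of Plaur, 46 bases before that of Mmp3 and 23 bases before that of Serpinb8, and the Timp4 window does not hold these letters. TGANTCA, searched on both strands, was found in 6.75% of all 32851 promoters of this length. Among members, 27 genes had a promoter in the table, with 32 starts, and 4 genes held it: Plaur, Mmp3, Serpinb8 and, at 1 of its starts, Adam19. The glucocorticoid response element, searched the same way, was in 0.387% of all promoters and in 0 of the 32 member promoters. These are 2 of 15 motifs searched, chosen for description after the matches were seen. A match of letters is a description and not a binding site.

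The question put to all members was which of them rose or fell over the 14 days. A slope gives the change in log2 level for each doubling of (day + 1), with the SE of the limma fit over the 6 arrays, and a gene is called at an adjusted p under 0.05 over all tested genes. Of the 45 members 14 rose and 10 fell, while 18.6% of all tested genes rose and 17.7% fell. In either direction 24 members, or 53.3%, were called, beside 36.3% of all tested genes. The median slope was 0.10 for the members and -0.00097 for all tested genes, and the median absolute slope was 0.38 and 0.19. Of the members 16 were not detected on at least 1 array. Such a gene passes the filter through the days on which it is high, so these counts include genes that had to differ between days. Among the 29 members detected on all 6 arrays 9 rose and 6 fell, beside 16.6% risen and 17.8% fallen of the 7064 genes detected throughout. Proteases and inhibitors each went both ways. Of 31 proteases 8 rose and 7 fell, with a median slope of 0.10, and of 10 inhibitors 4 rose and 1 fell, with a median slope of 0.19. Among those detected on all 6 arrays, 7 of 23 proteases rose and 5 fell, with a median slope of 0.10. Of the 5 inhibitors detected on all 6 arrays, 1 rose and 1 fell, with a median slope of 0.0060. The 31 proteases include non-catalytic ADAMs, without which 6 of 29 rose and 7 fell. Of the 24 calls, 8 held whichever single day was left out: Timp4, Adam33, Adamtsl4, Serpinb8 and Adam23, which rose, and Plaur, Mmp17 and Adam19, which fell. Of these, Timp4, Serpinb8 and Plaur were not detected on every array. They were tested through their high days, so their slopes in these fits rest partly on undetected levels. Without day 14 the counts were 5 risen and 3 fallen, and without day 10 they were 8 and 4.

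**Figure D1:**
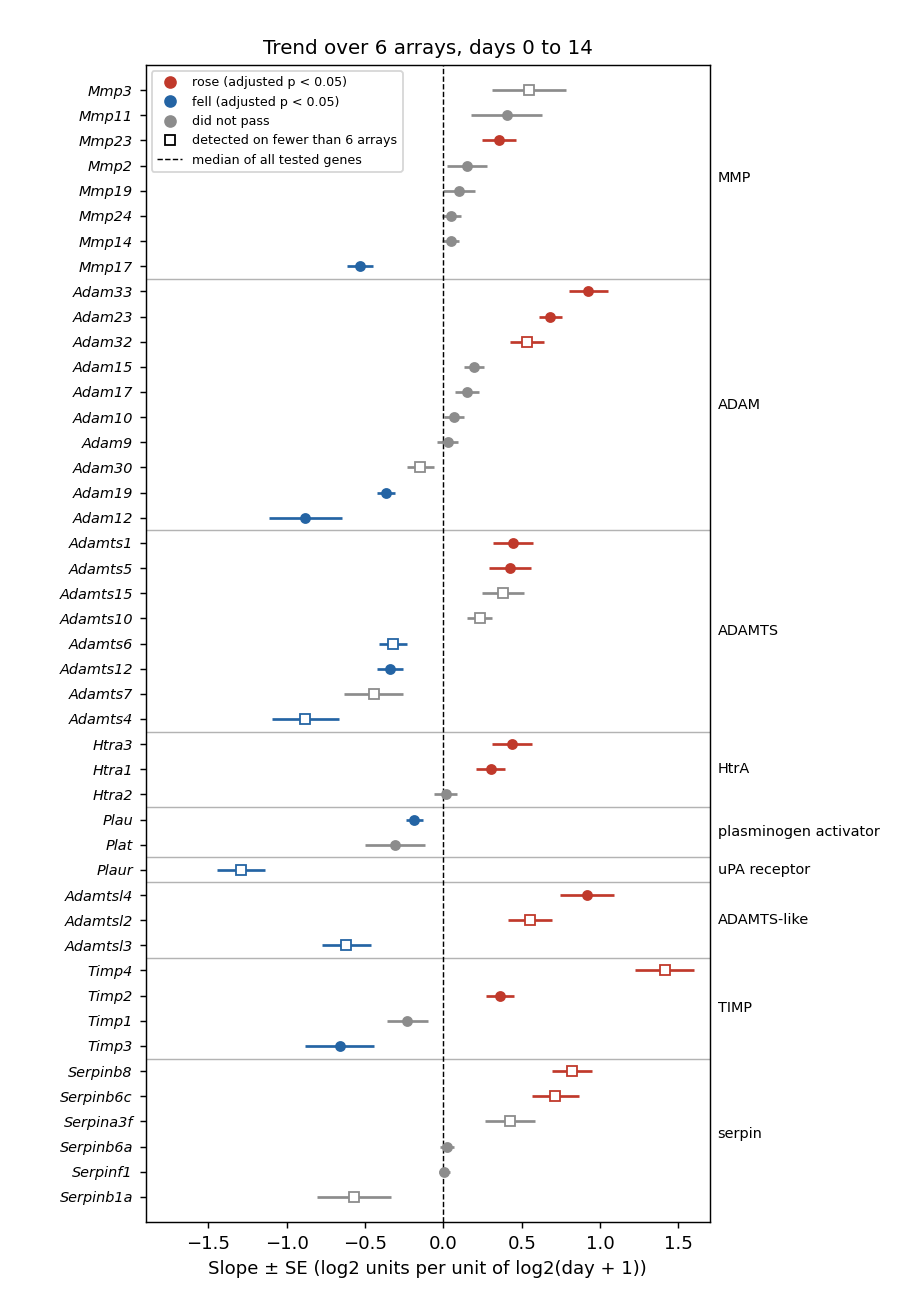
Slope over days 0 to 14 of the 45 members on the x axis, as change in log2 level for each doubling of (day + 1), with SE bars from the fit over 6 arrays; genes run down the y axis by family. Red marks the 14 genes that rose, blue the 10 that fell and grey the 21 that did not pass; open squares are genes detected on fewer than 6 arrays, and the steepest slopes are those of Timp4 (1.41) and Plaur (-1.29).

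Of the 8 MMPs, 1 rose, 1 fell and 6 did not pass. Mmp17, which codes for the membrane-anchored enzyme MT4-MMP, had log2 levels of 10.02 at day 0, 9.94 at day 1, 8.74 at day 3, 8.47 at day 6, 8.17 at day 10 and 8.26 at day 14. Its level was 2.44-fold lower at day 3 and 3.39-fold lower at day 14 than at day 0, with a slope of -0.53 ± 0.0838 (limma adjusted p = 0.00646). The drop lay between days 1 and 3, and the later 3 arrays were all below day 3. Mmp23, an MMP without the usual haemopexin domain, stood at 12.95 at day 0, 13.00 at day 1, 14.08 at day 3, 14.34 at day 6, 13.56 at day 10 and 14.48 at day 14. Days 3 to 14 were thus all above days 0 and 1, with a dip on day 10 and a slope of 0.36 ± 0.108 (limma adjusted p = 0.0388). That call ended without any 1 of days 0, 1, 6 and 14 (limma adjusted p up to 0.155), and with median scaling (0.0598).

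Mmp3, or stromelysin-1, which cleaves many matrix proteins and activates other MMPs, had its highest level on day 3. It stood at 6.29 at day 0, 8.17 at day 1, 9.92 at day 3, 8.74 at day 6, 9.24 at day 10 and 8.52 at day 14, and only the day 0 signal was not detected. On the normalized scale Mmp3 was at least 2.25-fold higher at day 1, at least 7.58-fold higher at day 3 and at least 2.88-fold higher at day 14 than at day 0. In the authors' deposited table of folds it was 2.16-fold higher at day 1, 5.93-fold higher at day 3 and 2.60-fold higher at day 14, so none of these 3 bounds holds on that scale. The slope did not pass at 0.54 ± 0.236 (limma adjusted p = 0.108), whereas a linear and a quadratic term together passed. Its second probe had the same shape, with 8.68 on day 3 as its highest log2 level.

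Mmp11, or stromelysin-3, was low on days 1 and 3 and high on days 6 and 10, with log2 levels of 10.22 at day 0, 8.68 at day 1, 9.19 at day 3, 11.04 at day 6, 11.54 at day 10 and 10.41 at day 14. Relative to day 0 it was 2.91-fold lower at day 1, 2.49-fold higher at day 10 and 1.14-fold higher at day 14, and its slope did not pass at 0.40 ± 0.228 (limma adjusted p = 0.197). Mmp2, the gelatinase A gene, was also low on day 1 and had its peak on day 3, with log2 levels of 14.65 at day 0, 13.71 at day 1, 15.27 at day 3, 15.06 at day 6, 14.74 at day 10 and 14.85 at day 14. Mmp2 was 1.91-fold lower at day 1 and 1.54-fold higher at day 3 than at day 0, did not pass at 0.15 ± 0.127 (limma adjusted p = 0.372), and reached 62.9% of the highest signal of an array, so the size of its peak is not resolved. The genes of the membrane-type enzymes Mmp14, which activates the Mmp2 proenzyme, and Mmp24 stayed within 1.40-fold and 1.37-fold over all arrays and did not pass, at 0.05 ± 0.0530 and 0.05 ± 0.0585. Mmp19 varied by 1.84-fold, with its highest level on day 3, and did not pass at 0.10 ± 0.104.

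Among 10 ADAMs 3 rose and 2 fell. Adam33, an ADAM of mesenchymal cells, had log2 levels of 7.15 at day 0, 7.16 at day 1, 9.23 at day 3, 9.93 at day 6, 10.13 at day 10 and 10.25 at day 14. It was 4.22-fold higher at day 3, 6.85-fold higher at day 6 and 8.54-fold higher at day 14 than at day 0, with a slope of 0.92 ± 0.123 (limma adjusted p = 0.00469). In the authors' deposited table it was 2.86-fold higher at day 3, 4.39-fold higher at day 6 and 5.37-fold higher at day 14. The Adam33 levels on days 0 and 1 were near background, with a lowest detected level of 6.94 on the day 1 array. The size of its folds over day 0 is thus not resolved. The first 2 arrays were level, both near background, and each later array was above the one before.

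Adam23, an integrin-binding ADAM that lacks a working catalytic site, stood at 11.66 at day 0, 11.81 at day 1, 12.96 at day 3, 13.71 at day 6, 13.92 at day 10 and 13.98 at day 14. It too rose on every array after the first, was 4.96-fold higher at day 14 than at day 0, and had a slope of 0.68 ± 0.0739 (limma adjusted p = 0.00343). Adam32, known from the male reproductive tract, was detected on days 6, 10 and 14 only and rose at 0.53 ± 0.111 (limma adjusted p = 0.0129), near background throughout with a highest log2 level of 7.51.

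Adam12, which codes for meltrin α, went the other way after a rise. Its levels were 10.33 at day 0, 10.66 at day 1, 11.01 at day 3, 9.15 at day 6, 7.35 at day 10 and 7.49 at day 14. Relative to day 0 the gene was 1.60-fold higher at day 3, 2.26-fold lower at day 6, 7.86-fold lower at day 10 and 7.15-fold lower at day 14, with a slope of -0.88 ± 0.233 (limma adjusted p = 0.0260). In the authors' deposited table Adam12 was 5.23-fold lower at day 10 and 4.93-fold lower at day 14. The fall took place between days 3 and 10. A second probe, detected on 4 arrays, had a slope of -0.69 ± 0.193. Its levels on days 10 and 14 were under the lowest detected levels of those arrays. It passed the filter through its high days, so its sign is not separate support. Without day 1, 10 or 14 the call of Adam12 ended (limma adjusted p up to 0.113). Adam19, or meltrin β, its close relative, fell with less amplitude, with log2 levels of 12.49 at day 0, 12.50 at day 1, 11.81 at day 3, 11.72 at day 6, 11.30 at day 10 and 11.18 at day 14. It was 2.47-fold lower at day 14 than at day 0, with a slope of -0.37 ± 0.0579 (limma adjusted p = 0.00657).

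The general sheddases did not pass. Adam17, which releases tumour necrosis factor, had a slope of 0.15 ± 0.0751, Adam10, a sheddase of Notch, of 0.07 ± 0.0657, and Adam9 of 0.03 ± 0.0648. Over the 6 arrays they varied by 1.78-fold, 1.36-fold and 1.36-fold. Adam15 narrowly missed at 0.19 ± 0.0647 (limma adjusted p = 0.0510), and passed with median scaling, with probes averaged per gene and with the slope on day. Adam30, near background, did not pass at -0.15 ± 0.0864.

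**Figure D2:**
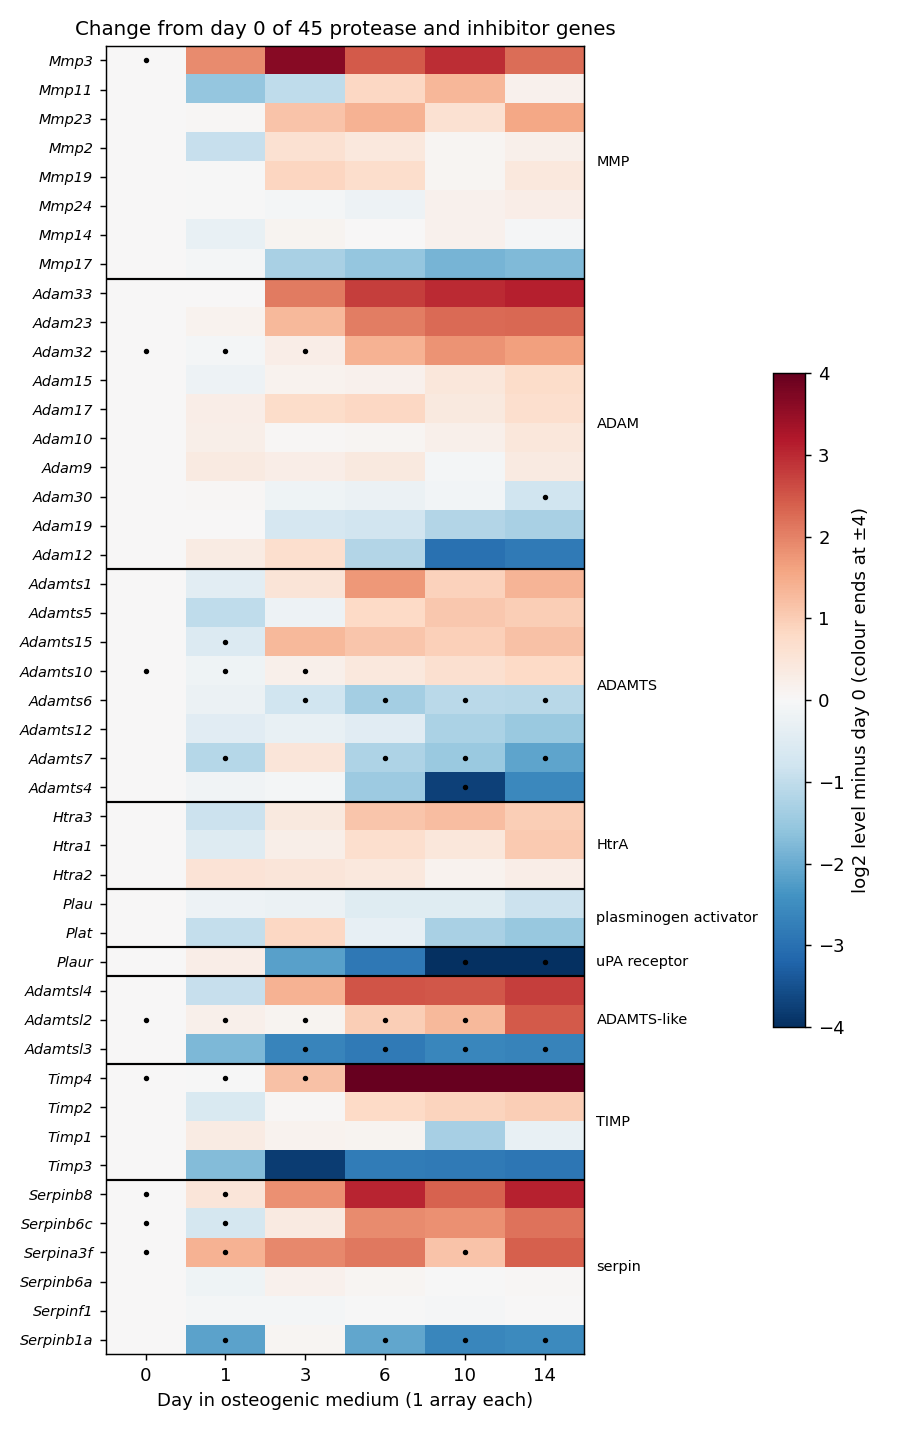
Log2 level minus the day 0 level for each of the 45 members (rows, by family and slope) on each array (columns, day in osteogenic medium). Red is above and blue below day 0, colour ends at ±4, and a black dot marks an array on which the probe was not detected; Timp4 (red) and Plaur (blue) reach the end of the scale.

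Of 8 ADAMTS genes 2 rose, 3 fell and 3 did not pass, and genes for enzymes with shared substrates went opposite ways. Adamts4 and Adamts5 code for the main aggrecanases. Adamts4 had log2 levels of 10.46 at day 0, 10.33 at day 1, 10.37 at day 3, 9.0 at day 6, 6.73 at day 10 and 7.88 at day 14. It was 2.75-fold lower at day 6 and 5.99-fold lower at day 14 than at day 0, was not detected on day 10, and had a slope of -0.88 ± 0.212 (limma adjusted p = 0.0195). The first 3 arrays lay close together, and the later 3 were all lower. This call ended without day 14 (limma adjusted p = 0.0660).

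Adamts5 stood at 12.60 at day 0, 11.60 at day 1, 12.39 at day 3, 13.41 at day 6, 13.67 at day 10 and 13.58 at day 14. It was 2.01-fold lower at day 1, then 2.09-fold higher at day 10 and 1.97-fold higher at day 14 than at day 0, with a slope of 0.43 ± 0.134 (limma adjusted p = 0.0439). Adamts1, a versican-cleaving enzyme, had the same early dip and its peak on day 6, with log2 levels of 9.95 at day 0, 9.52 at day 1, 10.48 at day 3, 11.68 at day 6, 10.87 at day 10 and 11.31 at day 14. It was 3.32-fold higher at day 6 and 2.56-fold higher at day 14 than at day 0, with a slope of 0.44 ± 0.129 (limma adjusted p = 0.0341). Each gene had 2 further detected probes. Those detected on all 6 arrays had slopes of 0.34 ± 0.154 for Adamts1 and 0.63 ± 0.185 for Adamts5. The others, detected on 3 arrays for Adamts1 and 5 for Adamts5, also had positive slopes. They passed the filter through their high days, so their sign is not separate support. Adamts5 was not called when day 1, 6, 10 or 14 was left out, nor Adamts1 when day 1, 10 or 14 was (limma adjusted p up to 0.135 and 0.107).

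Adamts12, which cleaves the cartilage protein COMP, fell late on its brightest probe, with log2 levels of 13.00 at day 0, 12.55 at day 1, 12.71 at day 3, 12.56 at day 6, 11.73 at day 10 and 11.52 at day 14. On that probe it was 2.79-fold lower at day 14 than at day 0, with a slope of -0.34 ± 0.0838 (limma adjusted p = 0.0208) and a call that ended without day 10 or day 14 (up to 0.111). A second, dimmer probe, detected on 5 arrays, had a slope of -0.10 ± 0.0962 and no late fall. It stood at 7.88 at day 0, 6.94 at day 1, 7.05 at day 6, 7.24 at day 10 and 7.24 at day 14. Adamts6, detected on days 0 and 1 only, fell at -0.32 ± 0.0919 (limma adjusted p = 0.0324), a call lost without any single day but day 3. Adamts7, Adamts10 and Adamts15 did not pass, at -0.45 ± 0.188, 0.23 ± 0.0781 and 0.38 ± 0.135, and were detected on 2, 3 and 5 arrays.

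ADAMTS-like proteins share the matrix-binding modules of ADAMTS enzymes but have no protease domain. Adamtsl4, which binds fibrillin microfibrils, had levels of 9.83 at day 0, 8.91 at day 1, 11.21 at day 3, 12.34 at day 6, 12.31 at day 10 and 12.59 at day 14. It was 1.89-fold lower at day 1, 2.59-fold higher at day 3 and 6.78-fold higher at day 14 than at day 0, with a slope of 0.91 ± 0.173 (limma adjusted p = 0.01). The low on day 1 was followed by 2 large steps and then a plateau from day 6. Adamtsl3 stood at 8.98 at day 0, 7.19 at day 1, 6.32 at day 3, 6.14 at day 6, 6.38 at day 10 and 6.31 at day 14. It was detected on days 0 and 1 only, and was 3.46-fold lower at day 1 than at day 0. In the authors' deposited table it was 2.43-fold lower at day 1. The day 1 level was near background, with a lowest detected level of 6.94 on that array. The Adamtsl3 slope of -0.62 ± 0.158 (limma adjusted p = 0.0233) lost the call without day 0, 10 or 14 (up to 0.188). Adamtsl2, another microfibril-binding protein, was detected on day 14 only and rose at 0.55 ± 0.142 (limma adjusted p = 0.0233). It was tested only through the day on which it was high, and its other levels were not detected. On the normalized scale it was at least 1.36-fold higher at day 14 than at day 0. The call ended without day 10 (limma adjusted p = 0.0577).

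The HtrA family of serine proteases had 2 risers of 3. Htra3 had log2 levels of 9.74 at day 0, 8.88 at day 1, 10.11 at day 3, 10.86 at day 6, 10.99 at day 10 and 10.71 at day 14 and a slope of 0.44 ± 0.129 (limma adjusted p = 0.0362). Htra1, a secreted enzyme of bone and cartilage matrix, stood at 10.90 at day 0, 10.39 at day 1, 11.14 at day 3, 11.59 at day 6, 11.36 at day 10 and 11.96 at day 14 and had a slope of 0.30 ± 0.0907 (limma adjusted p = 0.0383). Both were lowest on day 1 and above day 0 from day 3 on. Htra1 kept its call only without day 0, and Htra3 lost it without day 6, 10 or 14 (up to 0.181 and 0.107). Htra2, a mitochondrial member, did not pass at 0.01 ± 0.0712.

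Of the genes for plasminogen activation, the receptor gene Plaur and Plau fell and Plat did not pass. Plaur, the urokinase receptor gene, had log2 levels of 10.59 at day 0, 10.85 at day 1, 8.42 at day 3, 7.73 at day 6, 6.23 at day 10 and 6.33 at day 14. It was detected on days 0 to 6 only, with day 1 the highest. Relative to day 0 it was 4.51-fold lower at day 3, 7.25-fold lower at day 6 and, on the normalized scale, at least 15.4-fold lower at day 14. In the authors' deposited table Plaur was 9.08-fold lower at day 14, so that bound does not hold on that scale. Its slope of -1.29 ± 0.152 (limma adjusted p = 0.00379) was the steepest fall among the members and held without each single day.

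Plau, the urokinase gene, stood at 11.99 at day 0, 11.79 at day 1, 11.77 at day 3, 11.52 at day 6, 11.51 at day 10 and 11.13 at day 14. The change was small beside that of its receptor, 1.82-fold lower at day 14 than at day 0, with a slope of -0.19 ± 0.0546 (limma adjusted p = 0.0351). The call held only without day 3 among the fits that leave out a day (up to 0.202), and ended with median scaling (0.0696) and with unscaled deposited signals (0.0669). Plat, the tissue plasminogen activator gene, varied between arrays, at 11.72 at day 0, 10.77 at day 1, 12.54 at day 3, 11.39 at day 6, 10.42 at day 10 and 10.19 at day 14. It was 1.93-fold lower at day 1, 1.77-fold higher at day 3 and 2.88-fold lower at day 14 than at day 0, and did not pass at -0.31 ± 0.192 (limma adjusted p = 0.237).

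The 4 TIMP genes had 4 different courses. Timp4 had log2 levels of 5.31 at day 0, 5.29 at day 1, 6.48 at day 3, 9.38 at day 6, 9.31 at day 10 and 10.25 at day 14. It was not detected on days 0, 1 and 3 and was detected on the last 3 arrays. On the normalized scale Timp4 was at least 5.23-fold higher at day 6 and at least 9.51-fold higher at day 14 than at day 0, and in the authors' deposited table it was 10.2-fold higher at day 14. Its slope of 1.41 ± 0.190 (limma adjusted p = 0.00471) was the steepest rise among the members.

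Timp3, an inhibitor bound to matrix that also blocks Adam17 and the aggrecanases, dropped early, with log2 levels of 15.52 at day 0, 13.78 at day 1, 11.74 at day 3, 12.73 at day 6, 12.68 at day 10 and 12.64 at day 14. It was 3.34-fold lower at day 1, 13.8-fold lower at day 3, 6.92-fold lower at day 6 and 7.38-fold lower at day 14 than at day 0. The fall was complete by day 3 and partly reversed by day 6, after which the level was flat. The authors' deposited table gave 13.2-fold lower at day 3. The straight-line slope was -0.66 ± 0.218 (limma adjusted p = 0.0498), and the call ended without any 1 of days 0, 1, 6, 10 and 14 (up to 0.467 without day 0). The day 0 signal was at 69.0% of the highest signal of an array, so the size of the drop is not resolved. The slopes of the other detected probes had the same sign, at -1.20 ± 0.196 and -0.33 ± 0.100. These probes were detected on 3 arrays and on 1 array, and passed the filter through their high days, so their sign is not separate support.

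Timp2, which takes part with Mmp14 in activating the Mmp2 proenzyme, stood at 14.64 at day 0, 14.04 at day 1, 14.70 at day 3, 15.43 at day 6, 15.55 at day 10 and 15.63 at day 14. It was lowest on day 1 and highest on day 14, 1.98-fold higher than at day 0, with a slope of 0.36 ± 0.0915 (limma adjusted p = 0.0229). Timp2 lost its call without day 10 or day 14 (up to 0.0921). Timp1 was level up to day 6 and low on day 10, with log2 levels of 15.14 at day 0, 15.48 at day 1, 15.27 at day 3, 15.26 at day 6, 13.81 at day 10 and 14.83 at day 14. It was 2.52-fold lower at day 10 and 1.24-fold lower at day 14 than at day 0 and did not pass at -0.23 ± 0.128 (limma adjusted p = 0.194). Timp1 and Timp2 reached 76.2% and 76.1% of the highest signal of an array, so the size of their differences is not resolved.

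**Figure D3:**
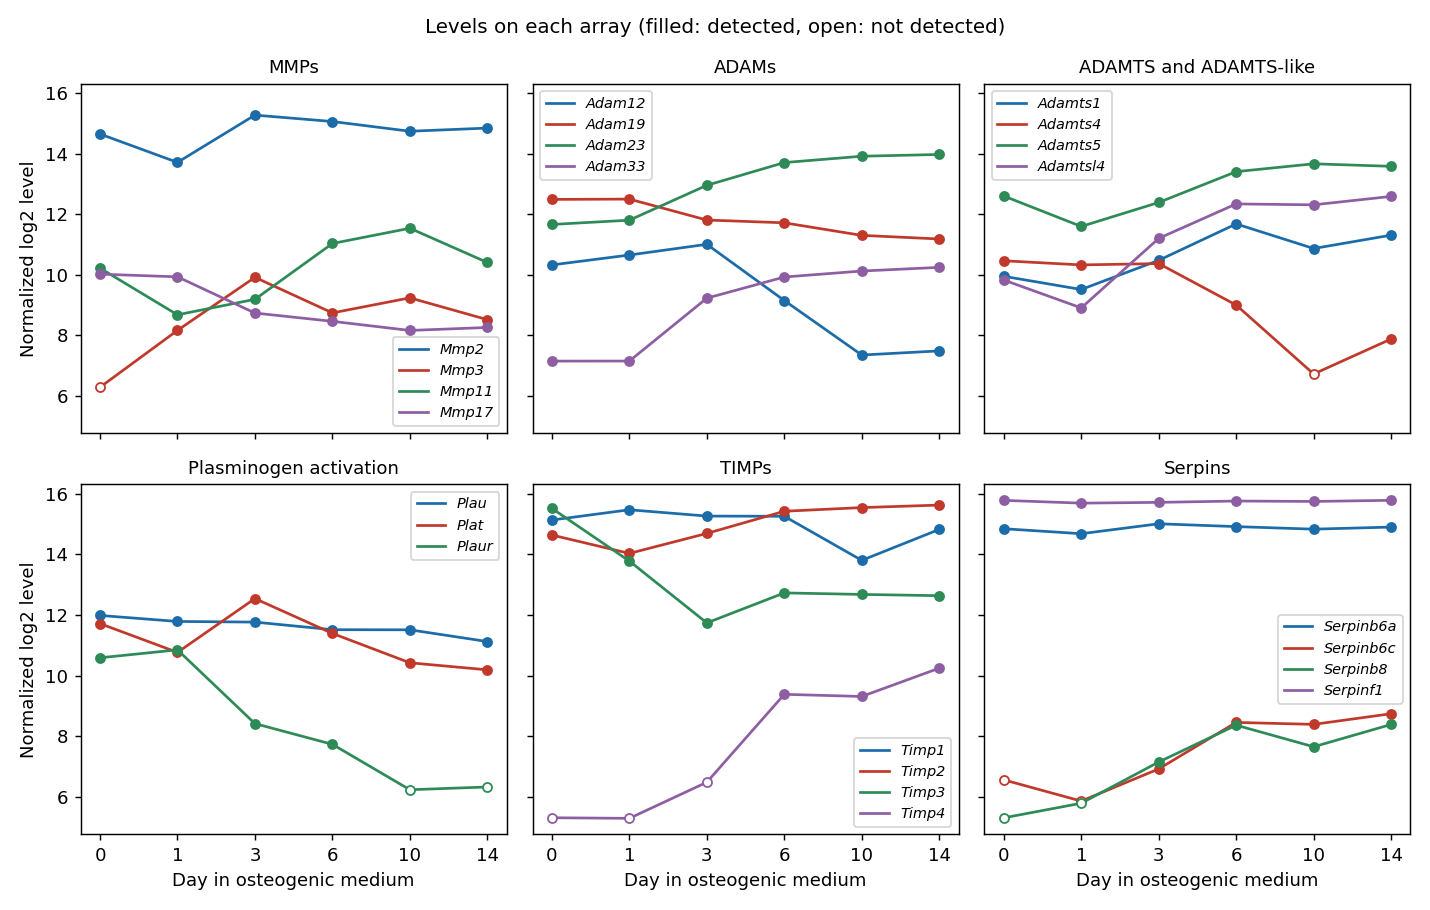
Normalized log2 level on the y axis against day in osteogenic medium, 1 array a day, for 23 members in 6 panels. Filled points were detected and open points were not; levels of different genes come from different probes and are not comparable. Timp3 drops by day 3 and Timp4 is first detected on day 6, and Plaur is not detected on days 10 and 14.

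Of 6 serpins 2 rose and 4 did not pass. Serpinb8, an intracellular serpin, had log2 levels of 5.31 at day 0, 5.79 at day 1, 7.15 at day 3, 8.37 at day 6, 7.65 at day 10 and 8.39 at day 14. It was not detected on days 0 and 1, was at least 2.62-fold higher at day 14 than at day 0 on the normalized scale (3.38-fold higher in the authors' deposited table), and had a slope of 0.82 ± 0.129 (limma adjusted p = 0.00646). Serpinb6c stood at 6.56 at day 0, 5.86 at day 1, 6.92 at day 3, 8.46 at day 6, 8.39 at day 10 and 8.74 at day 14, was detected from day 3 on, and rose at 0.71 ± 0.149 (limma adjusted p = 0.0131), a call lost without day 14 (0.0654). Serpinb6c has close relatives in the mouse genome, Serpinb6a among them, so probes may not tell them apart. Serpinb6a, detected on all arrays, varied by 1.25-fold and did not pass at 0.03 ± 0.0442. The signal of this probe reached 51.4% of the highest signal of an array, so small changes may not be resolved. A second, dimmer Serpinb6a probe, also detected on all 6 arrays, had a slope of 0.18 ± 0.0791. Its log2 levels were 9.08 at day 0, 8.60 at day 1 and 9.55 at day 14.

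Serpinf1, which codes for pigment epithelium-derived factor, a secreted serpin that inhibits blood vessel growth and not proteases, varied by 1.07-fold over the 6 arrays and did not pass at 0.01 ± 0.0348. Its signal reached 87.4% of the highest signal of an array, so small changes would not be resolved, and a second, dim probe pointed down at -0.27 ± 0.0721. Serpinb1a, an inhibitor of neutrophil proteases, was detected on days 0 and 3 only and did not pass at -0.57 ± 0.235 (limma adjusted p = 0.0952). Serpina3f, from a cluster of closely related genes, was detected on days 3, 6 and 14 and did not pass at 0.43 ± 0.161 (limma adjusted p = 0.0743).

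The steps between successive arrays were compared as counts of members at least 2-fold apart, with no test, since each day has 1 array. Genes missing from 1 side of a step were counted only if their bound reached 2-fold, among members and all tested genes alike. From day 0 to day 1 only Mmp3 was at least 2-fold higher on day 1, 2.63% of 38 members, beside 3.21% of all tested genes. A further 5 members, Timp3, Mmp11, Adamts5, Adamtsl3 and Serpinb1a, or 13.2%, were at least 2-fold lower on day 1, beside 2.75% of all tested genes. By any amount 25 of the 38 members were lower on day 1, beside 4145 of 8133 tested genes. From day 1 to day 3, 11 of 41 members, or 26.8%, were at least 2-fold higher on day 3, beside 7.04% of all tested genes. They included Adam33, Adam23, Adamtsl4, Mmp2, Mmp3, Mmp23, Plat and Htra3. Timp3, Plaur and Mmp17 were at least 2-fold lower on day 3 than on day 1, 7.32% of members, beside 5.17% of all tested genes.

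From day 3 to day 6, 7 of 42 members, or 16.7%, were at least 2-fold higher on day 6, beside 5.68% of all tested genes, and 6, or 14.3%, were lower, beside 4.85%. Timp4, Adamts1, Adamts5 and Mmp11 were among the higher and Adam12, Adamts4, Plat and Mmp3 among the lower. From day 6 to day 10 no member was at least 2-fold higher on day 10, beside 1.03% of all tested genes, and Timp1, Adam12 and Adamts4, 7.5% of 40 members, were lower, beside 3.2%. From day 10 to day 14 Timp1 and Adamts4 were at least 2-fold higher on day 14, 5% of 40 members, beside 0.733% of all tested genes, and Mmp11 was lower, beside 0.204%. Timp1 and Adamts4 lay just over that threshold, at 2.03-fold and at least 2.02-fold. In the authors' deposited table Adamts4 was 7.27-fold lower at day 10 and 4.48-fold lower at day 14 than at day 0, so its bound does not hold on that scale. With undetected arrays taken at their measured level, the largest single step of the 14 risers fell between days 1 and 3 in 7 and between days 3 and 6 in 6, beside 41.5% and 39.3% of the 1648 risen genes.

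**Figure D4:**
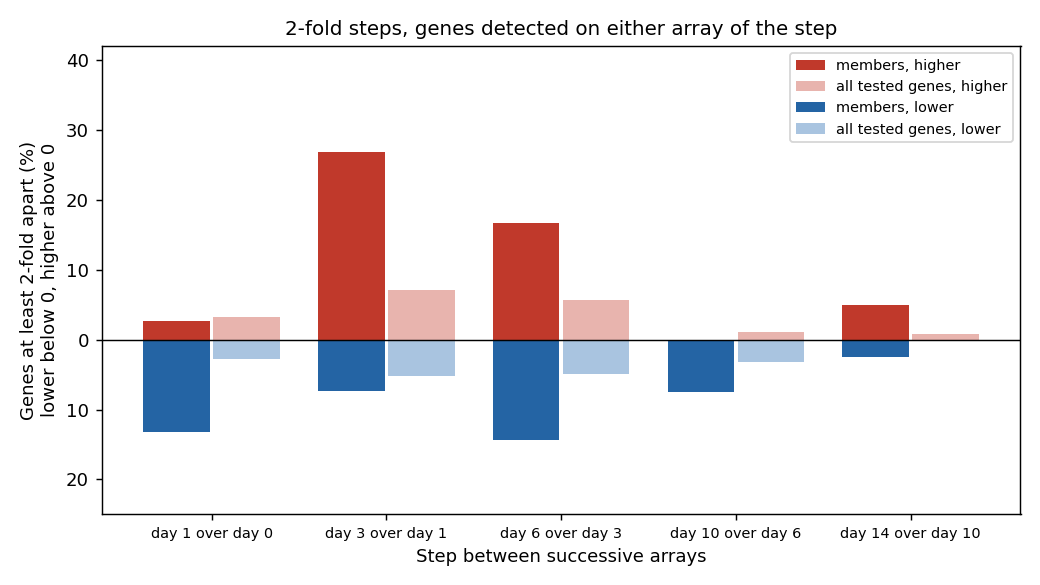
Percent of genes at least 2-fold apart between successive arrays (x axis, later day over earlier day), for members (dark bars) and all tested genes (pale bars), counted among genes detected on either array of the step, which are 38 to 42 members, with bounds where 1 array did not detect the gene. Bars above 0 are higher and bars below 0 lower on the later day; members stand at 26.8% higher for day 3 over day 1 and 13.2% lower for day 1 over day 0.

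Set against day 0, 6 of 41 members were at least 2-fold higher and 5 lower on day 3, beside 5.97% and 3.82% of all tested genes. The counts were 11 and 7 of 44 on day 6, beside 11.3% and 9.72%, and 9 and 11 of 43 on day 10, beside 13.4% and 13.3%. At the end of the course, 11 members were at least 2-fold higher and 10 at least 2-fold lower on day 14 than at day 0, or 24.4% and 22.2% of 45, beside 13.2% and 12.8% of all tested genes. In the authors' deposited table, whose folds are not bounded, the counts were 12 and 11, and the direction on day 14 was the same for 45 of 45 members. All comparisons with day 0 share that array.

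Other genes that act with these proteases were taken from 6 lists, whose counts stand beside the 18.6% risen and 17.7% fallen of all tested genes. Listed genes detected on fewer than 6 arrays entered the test through their high days, so their slopes rest partly on undetected levels. Among 12 tested cathepsins and cystatins, lysosomal proteases and their inhibitors, 6 rose and 0 fell (7 and 0 at an unadjusted p under 0.05), with a median slope of 0.21. Ctsf rose at 0.79 ± 0.174, Ctso, detected on 3 arrays, at 0.70 ± 0.136 and Ctsa at 0.81 ± 0.209, and Cst3, the secreted inhibitor cystatin C, at 0.50 ± 0.0687. Ctsk, the collagen-cleaving cathepsin of bone, did not pass at -0.02 ± 0.149. Among 14 tested regulators and activators of proteases 2 rose and 2 fell, with a median slope of -0.08. Reck, a membrane-anchored inhibitor of MMPs, had log2 levels of 9.82 at day 0, 9.75 at day 1, 10.88 at day 3, 12.04 at day 6, 12.57 at day 10 and 12.54 at day 14 and rose at 0.84 ± 0.0995. Spock2, a matrix proteoglycan detected on 3 arrays, rose at 1.10 ± 0.200, and Cd44, a hyaluronan receptor that also docks MMPs, fell at -0.70 ± 0.138. Furin, which activates the proenzymes of membrane-type MMPs and ADAMs, did not pass at -0.11 ± 0.0682.

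Of 9 tested plasmin and coagulation cofactors 1 rose and 2 fell, with a median slope of 0.01. S100a10, which forms a plasminogen-binding complex with annexin A2, rose at 0.27 ± 0.0578, Thbd and F3, the thrombomodulin and tissue factor genes, fell at -0.53 ± 0.106 and -0.38 ± 0.0660, and Lrp1, a receptor that clears protease and inhibitor complexes, did not pass at 0.15 ± 0.0707. Among 16 other matrix and cell surface proteases and related genes, not all of them proteases, 3 rose and 0 fell (5 and 1 at an unadjusted p under 0.05). That share of risen genes is near the share over all tested genes. The risers were Hyal1, a hyaluronidase and not a protease, at 0.66 ± 0.159, Cpxm2 at 0.50 ± 0.117 and Bace2 at 0.45 ± 0.123, with a median slope of 0.08 for the list. Hyal1 was detected on 5 arrays and Cpxm2 on 2. Of 23 tested matrix substrates 3 rose and 5 fell, with a median slope of -0.05, and Tnc, the tenascin C gene, Comp and Col1a1 had the largest slopes at -1.04 ± 0.130, 0.98 ± 0.180 and -0.93 ± 0.259. Among 12 tested AP-1 and ETS factors, which bind promoters of many protease genes, Fos rose at 0.54 ± 0.0880, Fosl1 and Etv4 fell at -0.64 ± 0.183 and -0.60 ± 0.161, and 9 did not pass. Fosl1 was detected on 4 arrays and Etv4 on 2.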

How the data were processed

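Biotin-labelled RNA from 6 samples was hybridised to Illumina single-colour bead arrays, per the labels' protocols. The deposited tables give a signal intensity per probe and array, with no scaling between arrays. Detection p-values stand beside them, per the file headers. A further deposited table gives the authors' signed folds over the control. The scanner software, background subtraction and the scaling of the folds are not stated in the labels or headers. Columns C and T1 to T5 were read as days 0, 1, 3, 6, 10 and 14. On each array 17785 of 17785 values equalled the sample-named value table within 1e-05.

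Of 46649 entries, 6 without and 30 with repeated identifiers were left out. Signals were corrected with nec (limma 3.58.1, R 4.3.3, offset 16), then quantile normalized and log2 transformed. Of 13805 probes with 1 symbol, the brightest probe on average represented each of 9751 genes, and 8881 detected on at least 1 array were tested. The slope on log2(day + 1) was tested two-sided with limma (lmFit, eBayes with intensity trend, 4 residual degrees of freedom), with p-values adjusted by Benjamini-Hochberg over the 8881 genes and a threshold of 0.05. The fit was tested on simulated data. P-values set a slope against the scatter of 6 single arrays about a line, with no replicate at any day, and having so few arrays limits precision. A fold with 1 undetected side is a bound against the lowest detected level of that array, also in the 2-fold counts. Promoters are from RefSeq.

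Members and lists were chosen with earlier results of these data known. Levels on every array are given for called members detected on all 6 arrays with an absolute slope of 0.5 or more, TIMPs, plasminogen activator genes, members at least 4-fold apart between arrays on which they were detected, and, chosen after their values were seen, others such as Mmp2, Mmp3, Mmp23, Adam19, Adamts12, Adamtsl3, Htra1, Serpinb6c and Serpinb8. From each list the 3 steepest called genes are named, and Ctsk, Cst3, Furin and Lrp1 were added after their values were seen. Alternatives varied the scaling, offset, detection filter, probe choice, time scale, shape, variance trend, single days and the membership of classes.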

Additional observations from a re-analysis of the deposited data

How the results depend on the processing

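No slope with a call changed sign under any alternative tried. With only genes detected on all 6 arrays, 9 members rose and 6 fell, 1 inhibitor rose, and the median slope of inhibitors was 0.0060, over fewer members by construction. A linear and a quadratic term together left 4 risen proteases. The count of fallen inhibitors, 1 as reported above, was 0 without a detection filter, with the slope on day and with eBayes without trend, where 2, 1 and 2 inhibitors fell at an unadjusted p under 0.05 in limma. Without non-catalytic ADAMs, 6 of 29 proteases rose and 7 fell, with a median slope of 0.067. Without the non-inhibitory Serpinf1 the median slope of inhibitors was 0.36. Leaving out each day in turn gave 5 to 16 risen and 3 to 12 fallen members, 2 to 10 risen and 2 to 8 fallen proteases, 2 to 4 risen and 0 to 2 fallen inhibitors, and median slopes of 0.06 to 0.17 for proteases and 0.10 to 0.19 for inhibitors. The lowest counts of risen and fallen members came without day 14, and the highest came without day 0 for risen and without day 3 for fallen members. The cause was not tested. Adamtsl2 could not be fitted without day 14, the only day it was detected. Under median scaling, and likewise with unscaled deposited signals, Mmp23 and Plau lost their calls, and under median scaling Adam15 and Adamts10 gained one. The 6 members that reached 50% or more of the highest signal of an array were Timp1, Timp2, Timp3, Mmp2, Serpinb6a and Serpinf1. Another 9 were detected on 1 to 3 arrays, where signal over background limits slopes and folds. No paired analysis was possible because each day has 1 array and the labels give no replicate numbers.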
